A study of Canis lupus familiaris with 6 samples.

Results

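The regulators of epithelial identity and of the epithelial-mesenchymal transition (EMT) were followed in RasV12-transformed kidney epithelial cells that had grown either among normal neighbours or with cells of their own kind only. The set holds 10 genes: SNAI1, SNAI2, TWIST1, ZEB1, ZEB2, GRHL2, OVOL1, ESRP1, ESRP2 and ELF3. Every non-control probe that carries one of these names in the array's own annotation was taken, which gave 11 of the 43603 probes and covered 9 of the 10 genes, out of 14228 gene names on the array. No probe is listed under the name TWIST1, so that gene was not analysed here.

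EMT is the programme by which epithelial cells lose their junctions and polarity and take on a motile, mesenchymal form. The zinc finger proteins SNAI1, SNAI2, ZEB1 and ZEB2 and the basic helix-loop-helix protein TWIST1 drive it, mainly by repressing epithelial genes such as CDH1, which encodes E-cadherin. GRHL2, OVOL1 and ELF3 are transcription factors that maintain epithelial genes, and ESRP1 and ESRP2 are RNA-binding proteins that keep the epithelial pattern of alternative splicing.

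The cells were MDCK-pTR GFP-RasV12, a derivative of the Madin-Darby canine kidney (MDCK) epithelial line in which tetracycline turns on GFP-tagged oncogenic RasV12. In mixed culture they were plated with normal MDCK cells, and in culture alone they were plated by themselves, in both cases on collagen type I. GFP-positive cells were sorted after 24 h of tetracycline, to select RasV12 cells in both groups and to leave out the normal neighbours. Carry-over of normal cells into the mixed samples was not tested. Each group had 3 samples, and each sample was hybridised to a 1-colour Agilent canine array. The mixture held 10 normal cells per RasV12 cell according to the series' design text and the labels of mixed replicates 1 and 3, whereas the label of mixed replicate 2 gives 100 per RasV12 cell. The shared extraction text in the labels names lines with a β-catenin mutant, while sample titles and methods give none for these arrays. The comparison asks what changes in RasV12 cells when their neighbours are normal, without added activation of Wnt signalling.

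Probe signals are given below as the scanner software's processed intensity, and differences are on the log2 scale after each array was set to the 75th percentile of its own probes. That percentile lay between an intensity of 592 and 700, and 60.8% to 66.4% of probes were well above background. A probe entered the test if 1 group or both had it well above background in all 3 samples, which held for 26535 probes. The median difference between mixed culture and culture alone over these was −0.00, the median absolute difference was 0.17, and the median SD between replicates was 0.13 alone and 0.10 in mixed culture. A probe was called at an adjusted p under 0.05, from limma's moderated test with Benjamini-Hochberg adjustment over all tested probes. The labels do not say whether the numbered samples were separate cultures, so the p-values measure the spread between these samples, which may be technical. Culture alone lay on one slide and mixed culture on another, so an effect of the slide and an effect of the neighbours cannot be told apart.

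Of the kidney tubule markers, 5 have a probe under the listed name (CDH1, CDH16, EPCAM, KRT18 and PAX8), and all 5 were well above background on all 6 arrays. Among 7 fibroblast markers, COL3A1 and PDGFRA were not well above background on any array, and among 7 leukocyte and endothelial markers this was true of PTPRC and CDH5. The other cell types' lists were nevertheless not at background as a whole. The summed signal of the fibroblast list, in multiples of each array's 75th percentile, was 1.21 to 1.28 alone and 1.34 to 1.44 in mixed culture, against 448 to 533 and 479 to 536 for the kidney list. The largest term of the fibroblast sum was COL1A2, whose 5 tested probes differed by −0.08 to 0.19. Of the 4 tested fibroblast markers, 3 lay above 0 and 1, COL1A1, below it at −0.13. None of the 4 was called, against 11.2% of all tested probes. The leukocyte and endothelial sum was 2.34 to 2.61 alone and 2.58 to 2.71 in mixed culture. The part of these shifts in the results below was not tested.

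Of the 11 member probes, 5 could be tested, 1 each for SNAI1, SNAI2, ESRP1, ESRP2 and ELF3. The remaining 6 probes, of ZEB1, ZEB2, GRHL2 and OVOL1, were too dim in both groups. The 60-base probes of 4 tested genes are printed below because every value of these genes rests on this 1 stretch of the transcript. A probe for ZEB1 is added because it was above background only in culture alone. Letters run 5′ to 3′ in the sense of the transcript, and positions are those of the array annotation on canFam3.1.
SNAI1, chr24:36498731-36498790, plus strand: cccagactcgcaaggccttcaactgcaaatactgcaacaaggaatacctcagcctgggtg
ESRP1, chr29:39360791-39360850, plus strand: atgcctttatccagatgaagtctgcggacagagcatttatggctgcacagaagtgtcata
ESRP2, chr5:81292741-81292876, plus strand: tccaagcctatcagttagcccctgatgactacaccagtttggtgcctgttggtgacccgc
ELF3, chr7:961847-962043, minus strand: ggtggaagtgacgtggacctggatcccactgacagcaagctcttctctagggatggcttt
ZEB1, chr2:15302746-15302805, minus strand: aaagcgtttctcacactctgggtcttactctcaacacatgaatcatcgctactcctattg
The ESRP2 and ELF3 probes span 136 and 197 bases of the genome with their 60 bases, so each is aligned in more than 1 piece. The longest run that any of these 5 probes shared with another probe on the array was 13 or 14 bases. The array annotation does not assign the probes to exons or untranslated regions.

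In mixed culture, SNAI2 fell and ELF3 rose, and none of the other 3 tested members passed the threshold. These 2 of 5 compare with 11.2% of all tested probes called, made up of 5.5% with a higher and 5.72% with a lower signal among normal neighbours. The members were chosen with earlier results of these data known, so this comparison is descriptive only. ESRP2 lay higher in every mixed sample without passing the test, ESRP1 differed by an amount whose confidence interval includes 0, and SNAI1 varied most between samples of the same group.

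SNAI2 (Slug) is a Snail-family repressor that binds E-boxes in epithelial promoters. Its processed intensity was 2771, 3350 and 3179 in culture alone and 1818, 1457 and 1491 in mixed culture. Every mixed sample lay below every sample of culture alone, and the groups were apart, in one direction or the other, for 37.2% of all tested probes. The same share stands beside every other tested probe below whose groups did not overlap. The log2 difference was −0.90 (SE 0.11, 95% confidence interval −1.16 to −0.64, adjusted p = 0.0136, limma), a 1.87-fold lower signal with an interval of 1.56 to 2.23. Of all tested probes, 97.8% differed by less in absolute terms. In a bulk sample of sorted cells, fewer cells that express the gene and less RNA per cell cannot be told apart.

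SNAI1 (Snail), the related repressor, did not pass the test. Its intensity was 69.9, 154 and 130 alone and 96.8, 79.6 and 71.7 in mixed culture, with alone replicate 1 the lowest of all 6 samples. The SD on the log2 scale was 0.52 alone and 0.19 in mixed culture, compared with 0.07 and 0.18 for SNAI2. The difference was −0.38 (SE 0.26, 95% confidence interval −1.00 to 0.24, adjusted p = 0.358, limma). Without alone replicate 1 it was −0.68 with an adjusted p of 0.0197, in a fit in which 26.4% of all tested probes were called.

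**Figure D1:**
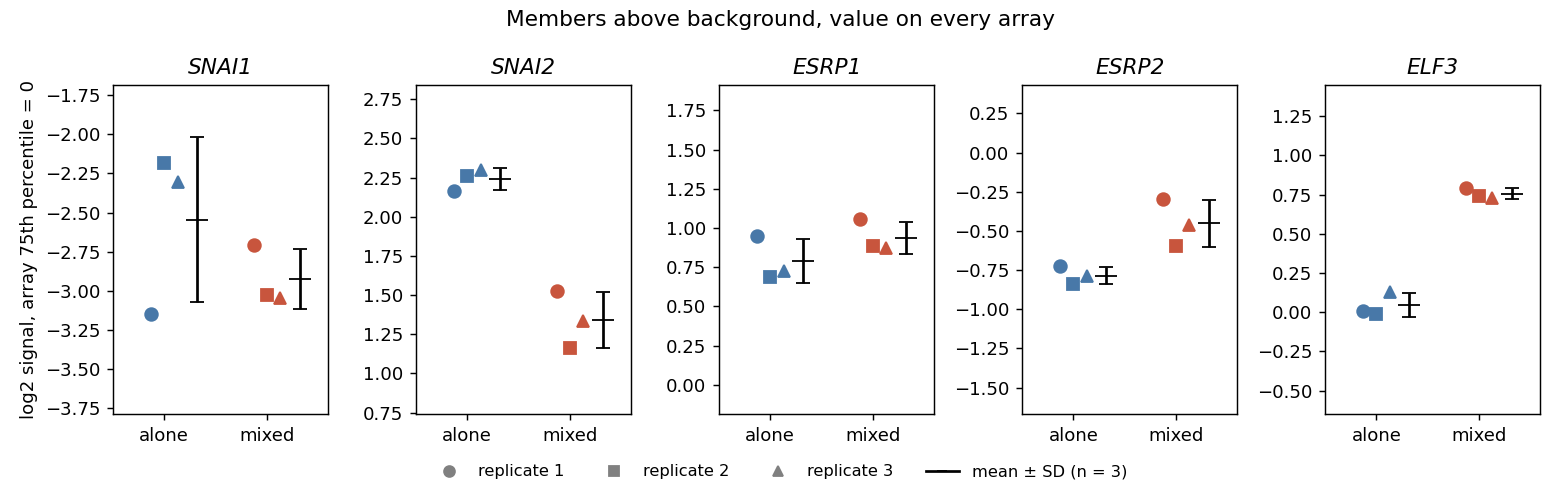
Signal of the 5 tested members on every array, as log2 intensity with each array's 75th percentile at 0, for culture alone and mixed culture (symbols mark the replicate number, bars the mean ± SD of 3 samples; every panel spans the same log2 range). SNAI2, ELF3 and ESRP2 do not overlap between the groups, whereas ESRP1 and SNAI1 do, both through alone replicate 1. Of all tested probes, 37.2% do not overlap between the groups.

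ZEB1, a zinc finger repressor that acts with SNAI2 on epithelial genes, was represented by 3 member probes, none of which cleared background in all 3 samples of either group. At the probe printed above, the intensity was 7.0, 21.0 and 14.6 alone, with only replicates 2 and 3 well above background, and 8.5, 6.1 and 9.7 in mixed culture, with none above. The groups overlapped through alone replicate 1. The probe was not tested. The other 2 member probes were not well above background on any array. One carried on all 6 arrays a value that the scanner software had substituted for a signal below its error, and the other read 4.95, 11.02 and 8.47 alone and 4.0, 4.0 and 3.2 in mixed culture.

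A further 3 probes on the array are described as ZEB1 but named only by a transcript identifier, and so are not members by the rule. One of them was read at 26.4, 41.3 and 32.4 in culture alone, well above background in all 3 samples, and at 11.1, 14.0 and 9.9 in mixed culture, well above background in none. No mixed sample reached the lowest sample of culture alone. Because the mixed values lie at background, the fold is a bound, and it applies to the group means under the main processing only. Between these means the signal was at least 2.34-fold lower in mixed culture. Each mixed array entered with the higher of the probe's own signal and the lowest signal well above background. The bound leaves out the spread between samples, and the 95% confidence interval of the fit reached down to 2.12-fold. With normexp correction the difference was smaller, at −0.29 on the log2 scale. The adjusted p of the fit was 0.0131 (limma), for a probe that entered the test through culture alone only. The other 2 of these probes were not well above background in culture alone, and 1 of them exceeded background in mixed replicate 2 only. The ZEB1 probes on the array thus did not all show the same pattern.

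ZEB2, the second ZEB repressor, was not well above background on any array, at 3.4, 3.1 and 2.9 alone and 3.6, 3.3 and 3.0 in mixed culture, and 5 of these 6 are substituted values. GRHL2, the grainyhead factor that opposes ZEB1 in epithelia, was also not well above background on any array. It read 3.8, 5.4 and 5.8 alone and 3.8, 3.5 and 3.2 in mixed culture, with substituted values on 4 arrays. OVOL1, a zinc finger repressor of EMT factors, read 7.2, 9.2 and 8.9 alone and 5.7, 4.0 and 5.1 in mixed culture, dim on all 6 arrays although the groups did not overlap. No fold is given for these 3 genes, since both groups lay below the level at which the array measures. Levels cannot be compared between probes, so these readings do not say that the genes were less expressed than the other members.

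**Figure D2:**
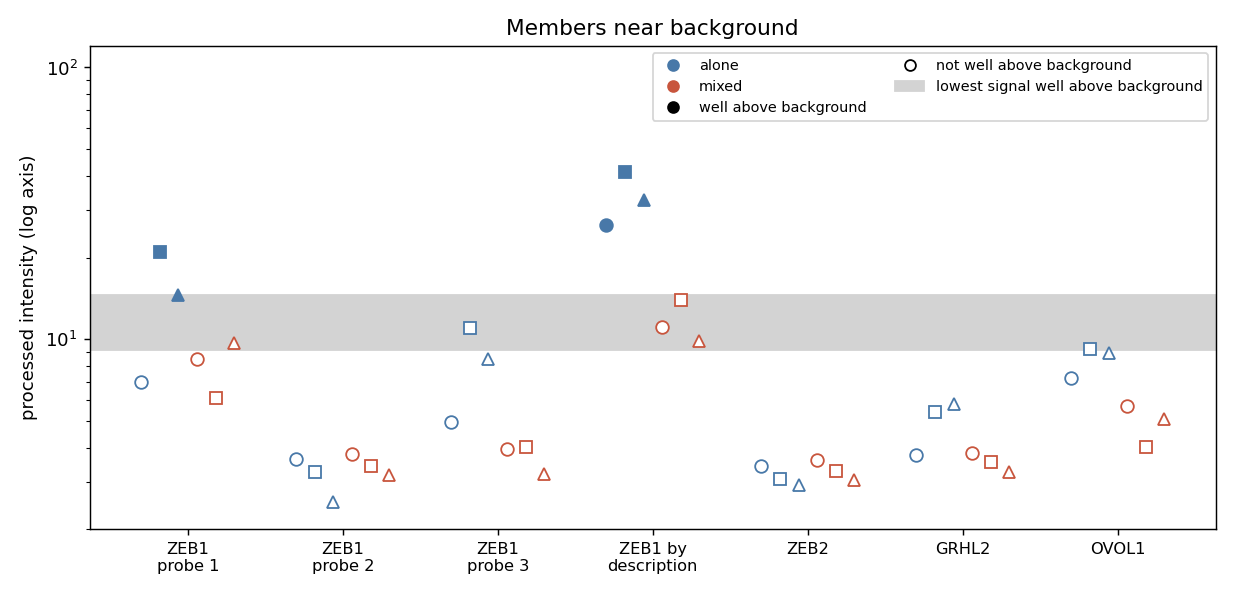
Processed intensity (log axis) of the member probes near background and of 1 of the 3 probes known as ZEB1 only by description, on every array. Circles, squares and triangles mark replicates 1, 2 and 3, and filled symbols mark values well above background. The grey band spans the lowest well-above-background signal of the 6 arrays, and the filled symbols belong to culture alone in all cases shown. Another of the 3 probes, not drawn, was well above background in mixed replicate 2, at 30.5.

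ELF3, an epithelial ETS-family transcription factor, was the member that rose. Its intensity was 623, 695 and 707 in culture alone and 1094, 1088 and 982 in mixed culture. All 3 mixed samples lay above all 3 samples of culture alone, and the SD was 0.08 and 0.03 on the log2 scale. The log2 difference was 0.71 (SE 0.07, 95% confidence interval 0.54 to 0.89, adjusted p = 0.0129, limma), a 1.64-fold higher signal with an interval of 1.45 to 1.85, and 95.8% of tested probes differed by less. The RNA spike-in controls read higher in mixed culture, by 0.10 to 0.24 on the log2 scale for the 8 that were well above background on all arrays. When arrays were scaled to these spike-ins, the median of all tested probes moved to −0.17, ELF3 was at 0.55 with an adjusted p of 0.0554 and SNAI2 at −1.06 with 0.0294, and 3.58% of all tested probes were called.

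ESRP2 and ESRP1 are the splicing regulators that promote the epithelial isoforms of FGFR2, CD44 and other transcripts. ESRP2 read 374, 391 and 373 alone and 514, 430 and 429 in mixed culture. Every mixed value was above every value alone, with mixed replicate 1 the highest, but the difference of 0.33 (SE 0.09, 95% confidence interval 0.11 to 0.56) had an adjusted p of 0.0698 (limma) and was not called. ESRP1 read 1196, 1127 and 1069 alone and 1312, 1199 and 1084 in mixed culture. The groups overlapped, and the difference was 0.15 (SE 0.10, 95% confidence interval −0.09 to 0.39, adjusted p = 0.356, limma), or −0.013 with spike-in scaling.

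**Figure D3:**
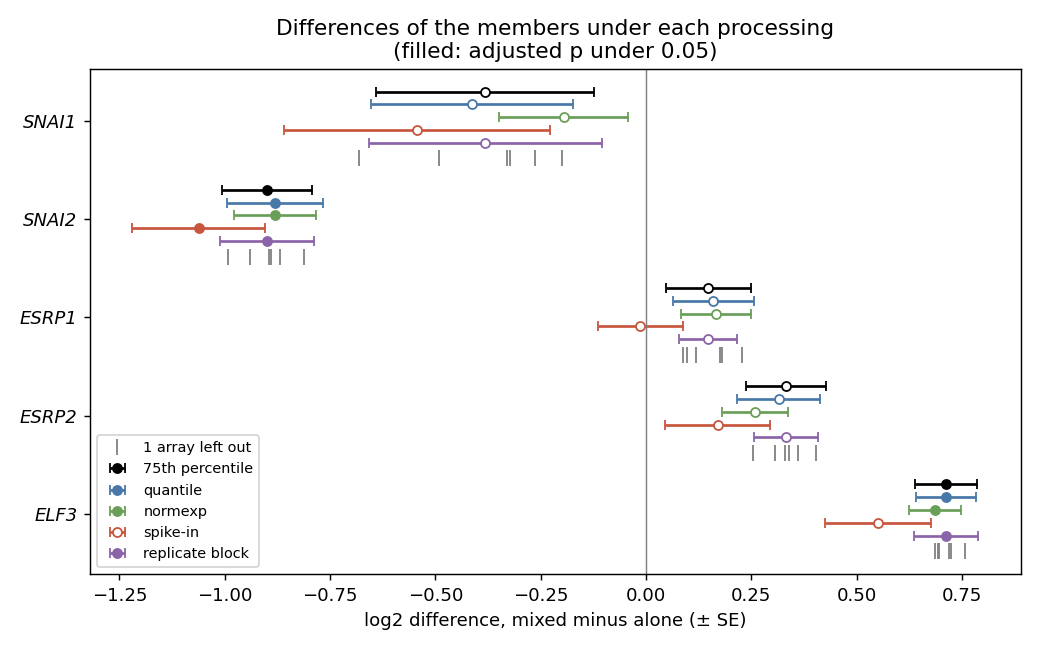
Mixed minus alone, as a log2 difference, for the 5 tested members, with the SE, under the 75th percentile, quantile, normexp and spike-in scalings and with the replicate number as a block (filled: adjusted p under 0.05), and as ticks with 1 array left out at a time. SNAI2 stays between −1.06 and −0.81 and ELF3 between 0.55 and 0.76 in every setting, and ESRP1 crosses 0 only under spike-in scaling.

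The change of one member against another within the same array stays the same when each array is scaled by 1 factor, as with the 75th percentile or the spike-ins, though not under quantile or normexp processing. It was computed for all 10 pairs of tested members after their values were known. Per array, the signal of ELF3 relative to SNAI2 was 3.06-fold higher in mixed culture than alone, a log2 change of 1.61, with mixed samples 1.47 to 1.78 above the mean of culture alone and the latter's own samples within −0.07 to 0.04 of it. ESRP2 relative to SNAI2 was 2.35-fold higher and ESRP1 relative to SNAI2 was 2.07-fold higher. These ratios include the differences of SNAI2 and ELF3 already given. With 3 samples against 3, an exact two-sided permutation test cannot give a p below 0.1, and it gave 0.1 for each of these 3 pairs, or 0.125 after Benjamini-Hochberg adjustment over the 10.

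Other regulators of the same kind were then counted, with 1 probe per gene, from lists chosen alongside the members. Earlier results of these data were known at that choice, so the shares called in the lists are descriptive only. All list counts below stand beside 11.2% of all tested probes called. TWIST2, the close relative of TWIST1, was the only one of 4 tested EMT-inducing factors to pass the threshold, and the median of those 4 was −0.07. Its intensity was 83.9, 93.7 and 82.1 alone and 46.7, 54.8 and 44.9 in mixed culture. The groups were apart, and the difference was −0.76 (SE 0.08, adjusted p = 0.0131, limma), or −0.37 with normexp correction. FOXC2 lay at 0.01 and SOX9 at −0.01 without passing. A further 6 listed factors were on the array but not tested, as neither group had them well above background in all 3 samples.

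GRHL3, a grainyhead factor of epithelial barrier formation and a relative of GRHL2, rose. It read 18.4, 14.3 and 13.8 alone and 43.3, 39.3 and 32.3 in mixed culture. All values were well above background, those of culture alone only just. The difference was 1.38 (SE 0.17, adjusted p = 0.0136, limma), a 2.60-fold higher signal, and 0.38 with normexp correction. With the methods' t-test its adjusted p was 0.0533, and GRHL3 was not called. The other 10 epithelial transcription factors tested did not pass, among them GRHL1 at 0.13, OVOL2 at 0.08, KLF4 at 0.04 and EHF at 0.22. The median of the 11 was 0.08.

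At the 1 probe taken per gene, none of 9 tested splicing regulators linked to EMT passed the threshold, their differences ranging from −0.38 for QKI to 0.29 for SRSF1 with a median of −0.03. Among their other probes, 1 of the 5 of MBNL1 was called, with that gene's probes at 0.07 to 0.42. At an unadjusted p under 0.05 there were 2 of the 9, against 31.4% of all tested probes, and the methods' t-test after adjustment called 0, against 3.11% of all tested probes. Of 4 tested genes whose transcripts the ESRP proteins splice, CD44, a hyaluronan receptor, fell. It read 1047, 1453 and 1431 alone and 759, 732 and 669 in mixed culture, with no overlap, and its difference was −0.78 (SE 0.11, adjusted p = 0.0183, limma). With the methods' t-test the adjusted p of CD44 was 0.0576, and it was not called. FGFR2 was at 0.36 with an adjusted p of 0.155. The probes report the amount of transcript at their own position, not which isoform is present.

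Among 20 tested epithelial genes, 1 rose and none fell, with a median of 0.04. That is 5.0% called, against 11.2% of all tested probes. CLDN3, a tight junction claudin, read 2106, 1994 and 1868 alone and 3085, 3378 and 3192 in mixed culture, apart in all samples, with a difference of 0.76 (SE 0.09, adjusted p = 0.0142, limma). CDH1 was at −0.37 (SE 0.10) with an adjusted p of 0.0648, and EPCAM, an epithelial adhesion molecule, at −0.05 with 0.620, or at 0.044 with quantile normalization. Among other claudins, CLDN4 was at 0.72 with an adjusted p of 0.0842, and 0.0315 with the replicate block. CLDN7 went the other way, at −0.52 with an adjusted p of 0.218 (limma), and was not called. All 3 CDH1 probes lay below 0, at −0.37 to −0.16, and none was called, whereas 1 of the 2 probes of OCLN, which encodes occludin, was called, though not the one taken for it.

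Among 22 tested mesenchymal genes, 1 rose and 2 fell, again with a median of 0.04. That is 13.6% called, close to the 11.2% of all tested probes. CDH2, which encodes N-cadherin, read 1191, 753 and 700 alone and 483, 297 and 283 in mixed culture. In both groups replicate 1 was the highest, and the groups did not overlap. The difference was −1.25 (SE 0.29, adjusted p = 0.0434, limma), a 2.38-fold lower signal, and all 3 of its probes were called, at −1.77 to −1.25. ITGA5, the fibronectin receptor's α-subunit, fell by 0.54 (adjusted p = 0.0243, limma), and S100A4, a calcium-binding protein, rose by 0.38 (adjusted p = 0.0313, limma). S100A4 was at 0.21 with an adjusted p of 0.301 under spike-in scaling. The methods' t-test after adjustment called 0 of the 22 mesenchymal genes, against 3.11% of all tested probes. The intermediate filament gene VIM was at −0.11 (adjusted p = 0.389) and FN1, which encodes fibronectin, at −0.26 (adjusted p = 0.227). The summed fibroblast marker signal given above, with COL1A2 as its largest term, was higher in mixed culture. Its part in these values was not tested.

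**Figure D4:**
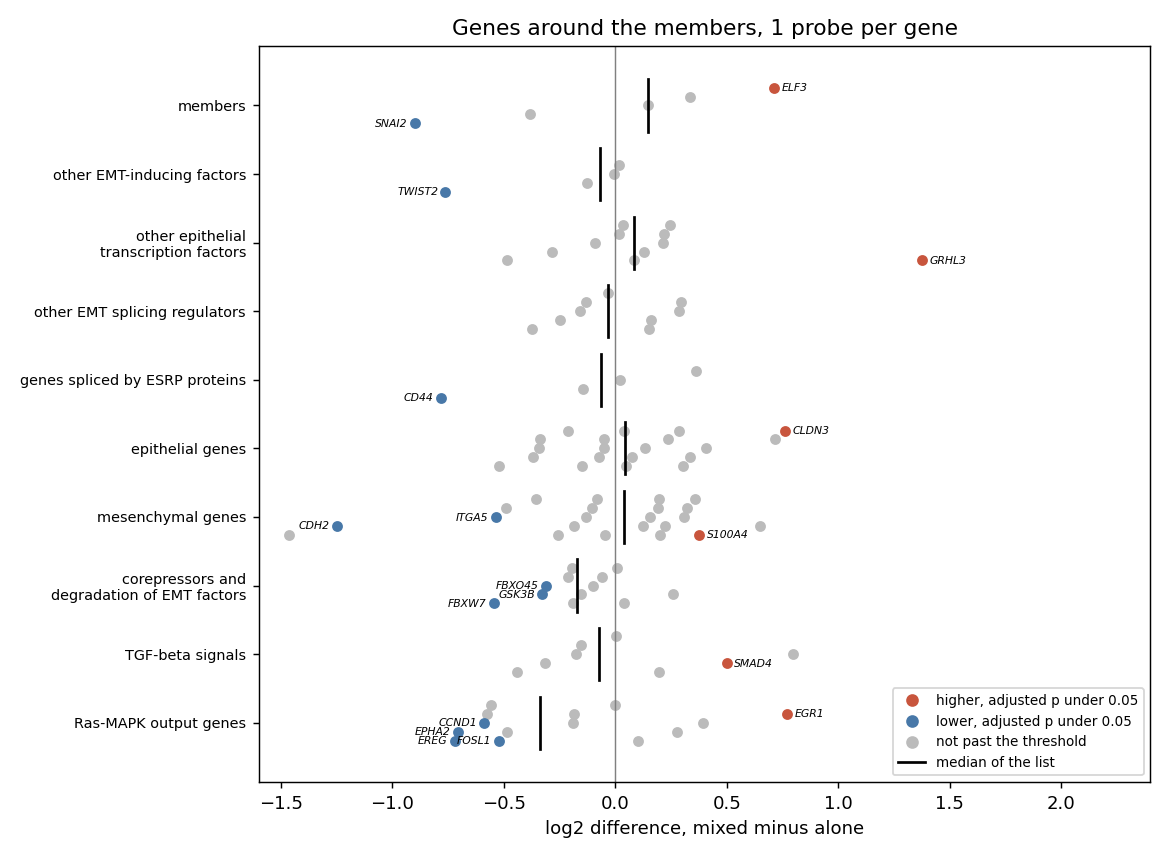
Mixed minus alone, as a log2 difference, for each tested gene of the member set and of 9 related lists, 1 probe per gene, with genes past the threshold named and a vertical bar at each list's median. In 9 of the 10 rows the median lies within 0.2 of 0, and in the Ras-MAPK row it is −0.34.

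Signals that act on these regulators were counted in the same way. The median of 12 tested corepressors and degradation factors of EMT proteins was −0.17. Of these 12 genes, none rose and 3 fell, or 25.0% against 11.2% of all tested probes. These were the ubiquitin ligase subunit FBXW7 at −0.55 (adjusted p = 0.0482), the kinase GSK3B, which marks Snail proteins for degradation, at −0.33 (0.0348), and the ubiquitin ligase subunit FBXO45 at −0.31 (0.0359). With the replicate number as a block their adjusted p-values were 0.0728, 0.0531 and 0.0561, and none was called, against 10.6% of all tested probes. With spike-in scaling they were 0.0809, 0.0717 and 0.0744. Of 8 tested genes of the TGF-β pathway, a main inducer of EMT, SMAD4 passed at the probe taken for it, at 0.50 (adjusted p = 0.0364, limma), with 1 of its 2 probes called, and its adjusted p was 0.0842 with spike-in scaling. BMP7 was not called at the probe taken for it but had 1 of 4 probes called, with its probes at −0.34 to −0.18. After adjustment, the methods' t-test called 0 of the 8 TGF-β genes, against 3.11% of all tested probes. It called 2 of the 12 corepressors and degradation factors. The ligand gene TGFB1 was at −0.44 with an adjusted p of 0.0999 and ID3, a BMP and TGF-β response gene, at 0.80 with 0.0987, and with the replicate block these were 0.0424 and 0.0344.

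The Ras-MAPK output genes had the lowest median of any list, −0.34 over 14 tested genes, of which 4 fell and 1 rose. The share called was 35.7%, against 11.2% of all tested probes. EREG, an EGF receptor ligand, fell by 0.72 (adjusted p = 0.0103, limma) and the receptor tyrosine kinase gene EPHA2 by 0.71 (0.0242). CCND1, which encodes cyclin D1, fell by 0.59 (0.0366) and FOSL1, an AP-1 subunit, fell by 0.52 (0.0193). EGR1, an immediate early transcription factor, rose by 0.77 (adjusted p = 0.0157, limma). The methods' t-test after adjustment called 3 of the 14 genes, against 3.11% of all tested probes. With the replicate block CCND1 had an adjusted p of 0.0633, while SPRED1 at 0.39 and IER3 at −0.49 passed with 0.0491 and 0.0377, and with spike-in scaling CCND1 and FOSL1 had adjusted p-values of 0.0669 and 0.0518.

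The genes whose profile over the 6 arrays was closest to that of a called member were found by the root mean square difference of the log2 values after each probe's own mean was subtracted. For SNAI2, 3371 probes with comparable spread were searched. PTER and SLC10A6 were among the 3 closest, at 0.05 each, with differences of −0.98 and −0.81. For ELF3, NBEA, ENOX2 and KAT2B came first among 5665 probes, at 0.04, 0.05 and 0.05, with differences of 0.68, 0.65 and 0.77. The closest profiles were picked from many probes over only 6 arrays, and the measure describes these arrays alone.

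The calls depended on which array was left out. Without alone replicate 1, 3 of the 5 tested members (SNAI1, SNAI2 and ELF3) and 29 list genes were called beside 26.4% of all tested probes, and without mixed replicate 1, 2 members and 16 list genes beside 7.46%. Without alone replicate 2, alone replicate 3, mixed replicate 2 or mixed replicate 3, no member and none of 104 list genes was called, although 3 members and 31 to 34 list genes had an unadjusted p under 0.05, as did 21.9% to 23.0% of all tested probes. Over the whole array 24, 7, 9 and 12 probes were then called, or 0.09%, 0.0263%, 0.0338% and 0.045% of those tested. With no filter on dim probes, no member was called either, and 0.0275% of all probes were. The differences themselves moved little: SNAI2 lay between −0.99 and −0.81 and ELF3 between 0.69 and 0.76 with any 1 array left out.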

How the data were processed

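Each of 6 RNA samples (3 alone, 3 mixed) was labelled with 1 colour and hybridised to an Agilent canine array. The authors deposited scanner output from Feature Extraction 10.10.1.1 with an intensity per spot (processed signal, mean signal and local background), and a log2 table of 26529 probes. Tested against the scanner output, the table holds log2 processed signals from which each array's 75th percentile was taken off, with column medians of −0.83 to −0.78.

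The members and gene lists were chosen with earlier results of these data known. Control and outlier spots were left out, and no probe was saturated. Log2 processed signals were set to each array's 75th percentile over 43603 probes. Probes that 1 group or both had well above background in all 3 samples (26535) were fitted with limma 3.58.1 (lmFit, eBayes; R 4.3.3), with two-sided p-values adjusted by Benjamini-Hochberg and called under 0.05. For lists, the tested probe with the highest mean stood for each gene. Named were all members; CDH1, EPCAM, CDH2, VIM and FN1; list genes past the threshold, at most 5 per list; and 3 genes most like each called member. Other genes are named after their values were seen. Some items are not reported here. The array names 22683 probes, and 20920 carry an accession only, none of which matched a RefSeq table.

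Alternatives were quantile normalization, normexp background correction (offset 50), no filter, a filter on all 6 arrays, the deposited table, the methods' t-test, spike-in scaling, the replicate number as a block, and each array left out. Deviations from the group means of same-numbered arrays correlated at 0.35, 0.16 and 0.30, and those of differently numbered arrays at −0.33 to 0.24. Alone replicate 2 correlated more with mixed replicate 3 (0.24) than with mixed replicate 2. The replicate number is also the position on the slide, so a pairing of samples and an effect of position cannot be told apart. The main fit was unpaired, with the replicate block as an alternative. The procedure was tested on simulated data. The number of arrays limits precision. Tables were handled with Python 3.11.15, pandas 2.3.3, numpy 2.4.6, scipy 1.17.1 and matplotlib 3.10.9.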

Additional observations from a re-analysis of the deposited data

How the results depend on the processing

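Over 14 alternatives, SNAI2 kept its call in 9 and ELF3 in 8, and neither changed direction. With no filter on dim probes, 12 probes of 43603 were called, SNAI2 was at −0.90 (adjusted p = 0.0668, limma) and ELF3 at 0.71 (0.0627), so that 0 members and 0 list genes were called, against 7821 probes, 3 members and 37 list genes with an unadjusted p under 0.05. With spike-in scaling 949 probes were called, ELF3 was at 0.55 and past the threshold no longer, which left 0 members called higher, and ESRP1 turned to −0.013. The list genes called were 5 higher and 11 lower. They were 8 higher with quantile normalization, 14 higher with normexp, 2 higher and 5 lower with the methods' t-test (826 probes in all), and 3 higher and 6 lower with spike-in scaling.

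Leaving out 1 array gave 7 to 7335 called probes, 0 to 1 members higher and 0 to 3 lower (without alone replicate 1, with a ZEB1 probe that is dim in mixed culture), and 0 to 16 list genes in each direction. The differences then ranged from −0.99 to −0.81 for SNAI2, 0.69 to 0.76 for ELF3, 0.25 to 0.40 for ESRP2, 0.09 to 0.23 for ESRP1 and −0.68 to −0.20 for SNAI1. With the replicate block, SNAI2 was at −0.90 (adjusted p = 0.0319) and ELF3 at 0.71 (adjusted p = 0.0314), no member's call changed, 2825 probes were called, and 8 list genes were higher. Of 377 values of the 27 genes that the naming rule chose outside the tested members, 229 kept direction and side of the threshold, 146 lost the call, 1 gained it and EPCAM turned to 0.044 with quantile normalization. Of 336 list counts, 248 stayed within 1.5 times, which includes counts that were 0 in the main fit and stayed 0. The number is therefore no measure of how stable the calls were. A slide block was not run, as each slide held 1 group. The causes were not tested. Dim probes limit what can be said of ZEB1, ZEB2, GRHL2 and OVOL1.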
